A study of Homo sapiens with 6 samples.

Results

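Chemokines are small secreted proteins that guide the migration of leukocytes by binding G protein-coupled receptors on them. In the CXC class the leading pair of conserved cysteines is parted by another residue, and in the CC class the cysteines are adjacent. Many chemokine genes are silent in resting cells and are switched on within hours by inflammatory stimuli such as interleukin-1, tumour necrosis factor, microbial products, double-stranded RNA or interferons, largely through the transcription factor NF-kB and, for some members, through STAT and IRF factors. The genes described here are those of the table whose platform symbol begins with CXCL or CCL followed by a digit, read by probe sets annotated to a single gene. They are 8 of the 11584 genes tested, each with 1 probe set: CXCL1, CXCL2, CXCL3, CXCL6, CXCL8 (interleukin-8), CXCL10, CXCL16 and CCL22. RefSeq holds 42 protein-coding symbols of this form, and the other 34 were not analysed here.

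The genes were selected on their symbols, and the set was proposed with the values after siRNA already known to be high. Only probe sets kept in the deposited table could enter it. All but 1 of its 13008 probe sets lie above a log2 value of 5 on at least 2 arrays, and 6 of the 8 chemokines reach 5 on the knockdown arrays alone. If that level was the rule of the table, which the sources used do not state, these 6 entered it through the knockdown arrays. Their values after siRNA are therefore given below as a description, with no test. CXCL10 lay closest to that level, at 5.13 and 5.33 on the knockdown arrays.

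The data are log2 expression values of 6 Affymetrix U133 Plus 2.0 arrays. The cells are HEK293 T-REx Flp-In, an established human embryonic kidney line, and in every group they carry a doxycycline-inducible transgene for FLAG/HA-tagged LIN28B, which binds RNA and keeps let-7 microRNAs from maturing. The groups, with 2 arrays each, are cells transfected with siRNA against LIN28B with the transgene not induced (called knockdown here), mock-transfected cells with the transgene induced, and mock-transfected cells with the transgene not induced. The protocol gives 250 ng/ml doxycycline for 15 to 20 h before crosslinking, and gives no time for the cells put on arrays. No group received a non-targeting siRNA, so the effect of transfecting an siRNA and that of losing LIN28B cannot be told apart. The labels do not tell whether replicates were separate cultures, so the p-values speak only of how these arrays vary, and that variation may be technical. Fewer cells with a transcript and less transcript per cell cannot be told apart in such bulk RNA.

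The targeted transcript was low where the labels say so. LIN28B read 7.51 and 7.53 on the knockdown arrays, 10.15 and 10.11 on the induced mock arrays and 10.02 and 9.85 on the mock arrays not induced. Induced and uninduced mock cells differed by 0.19 for LIN28B (SE 0.08, limma adjusted p = 0.999), and whether this probe set reads the transgene is not given in the sources used. Across probe sets, the replicate arrays of the knockdown correlated at 0.993, those of the induced mock cells at 0.9937 and those of the mock cells not induced at 0.9899.

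Before the values, stretches of 6 of the promoters are shown, because these 6 are the chemokines that lay under 5 on every mock array and because their promoters share a short sequence. The bases come from RefSeq on GRCh38.p14. There 7 of the 8 genes, all but CXCL16, have an entry that runs from 250 bases before to 50 bases after the annotated start. Each stretch lies before the start and is written 5′ to 3′ along the gene's own strand. In the CXCL1, CXCL2, CXCL3, CXCL6 and CXCL8 stretches the capitals mark GGAATTTCC, placed so that 60 bases stand before it and 30 after it. In CXCL10 the capitals mark both matches to the NF-kB decamer consensus. The stretches are chr4:73869255-73869353 on the plus strand for CXCL1, chr4:74099234-74099332 on the minus strand for CXCL2, chr4:74038729-74038827 on the minus strand for CXCL3, chr4:73836529-73836627 on the plus strand for CXCL6, chr4:73740418-73740516 on the plus strand for CXCL8 and chr4:76023590-76023694 on the minus strand for CXCL10.
CXCL1: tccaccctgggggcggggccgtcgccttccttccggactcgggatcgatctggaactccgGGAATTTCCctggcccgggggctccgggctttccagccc
CXCL2: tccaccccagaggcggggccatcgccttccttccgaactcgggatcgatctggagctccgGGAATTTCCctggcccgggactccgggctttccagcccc
CXCL3: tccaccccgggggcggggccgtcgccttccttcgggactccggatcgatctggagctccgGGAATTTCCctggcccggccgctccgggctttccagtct
CXCL6: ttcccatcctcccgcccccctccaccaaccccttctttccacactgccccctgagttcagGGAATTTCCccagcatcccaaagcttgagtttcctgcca
CXCL8: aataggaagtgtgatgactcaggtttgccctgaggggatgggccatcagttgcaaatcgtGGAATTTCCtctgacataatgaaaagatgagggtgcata
CXCL10: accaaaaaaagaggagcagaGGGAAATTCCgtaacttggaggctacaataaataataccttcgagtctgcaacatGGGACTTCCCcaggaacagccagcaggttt

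GGAATTTCC, searched on both strands, occurs in 6 of the 7 promoters, on the gene's strand in 5 and on the other strand in CXCL10. It occurs in 0.472% of the 27305 RefSeq promoters of the same length. These shares are no test, because GGAATTTCC was chosen from the members' own promoters. Counted from the annotated start, with negative positions before it, its leading base lies at -78 in CXCL1, -77 in CXCL2, -78 in CXCL3, -89 in CXCL6 and -91 in CXCL8. The NF-kB decamer consensus, which overlaps it, matches 6 of the 7 promoters, all but CXCL8, against 5.72% of all promoters. In CCL22 it matches at -185, and GGAATTTCC is absent from that window. The stretches of CXCL1, CXCL2 and CXCL3 are near copies: CXCL1 and CXCL3 share 91.9% of 99 bases, CXCL1 and CXCL2 82.8%, and CXCL2 and CXCL3 79.8%. Their matches are therefore not separate observations. CXCL6 and CXCL8 share 24.2% with each other over the same length. Bases were compared place by place without gaps, on stretches lined up at GGAATTTCC. Its own bases therefore match in every pair, and a shift by a base counts as mismatches.

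Other short motifs occur in fewer of these promoters. The GC box GGGCGG matches in CXCL1, CXCL3 and CXCL6 (44.6% of all promoters), the AP-1 motif TGANTCA in CXCL8 alone (7.76%), the interferon-stimulated response element GAAANNGAAA in CXCL10 alone (3.65%) and the TATA box TATAAA in CXCL8 alone (12.0%), each searched on both strands. GGAATTTCC was chosen after the members' promoters were read. A match is a string of letters and no measurement of binding.

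CXCL1, CXCL2 and CXCL3, the growth-regulated oncogene proteins, draw neutrophils through the receptor CXCR2. All read higher after siRNA, CXCL1 most and CXCL3 least. CXCL1 had log2 values of 6.56 and 6.34 on the knockdown arrays, against 4.45 and 3.89 on the induced mock arrays and 4.37 and 4.21 on the mock arrays not induced. CXCL2 had 6.27 and 6.26 in the knockdown, against 3.97 and 4.81 in induced mock cells and 4.56 and 4.72 in mock cells not induced. CXCL3 had 5.40 and 5.30 in the knockdown, against 4.89 and 4.53 in induced mock cells and 4.73 and 4.57 in mock cells not induced. For each of these genes both knockdown arrays lie above all 4 mock arrays, with a gap of 1.89 for CXCL1, 1.45 for CXCL2 and 0.41 for CXCL3 between the lowest knockdown and the highest mock value. The 4 mock arrays themselves spread over 0.56, 0.84 and 0.36.

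CXCL6, also called granulocyte chemotactic protein, and CXCL8 bind both CXCR1 and CXCR2 and are neutrophil attractants too. CXCL6 had 6.45 and 6.19 on the knockdown arrays, against 4.64 and 4.48 on the induced mock arrays and 4.62 and 4.15 on the mock arrays not induced. CXCL8 had 5.61 and 5.41 in the knockdown, against 4.38 and 3.63 in induced mock cells and 4.04 and 3.67 in mock cells not induced. No mock array reached the knockdown values of either gene, and the gaps were 1.55 and 1.04.

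CXCL10, an interferon-inducible chemokine, attracts activated T cells through CXCR3 and lacks the glutamate-leucine-arginine motif that marks the neutrophil attractants of the CXC class. It had 5.13 and 5.33 on the knockdown arrays, against 3.63 and 3.29 on the induced mock arrays and 3.45 and 3.17 on the mock arrays not induced. The lowest knockdown value stood 1.50 above the highest mock value.

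CXCL16 is made as a membrane-bound protein that binds CXCR6 and is shed from the surface, and CCL22, also called macrophage-derived chemokine, attracts T cells through CCR4. Both lay above 5 on all 4 mock arrays. If that level was the rule of the table, their place in it did not depend on the knockdown. CXCL16 had 6.18 and 6.23 in the knockdown, against 5.68 and 5.92 in induced mock cells and 5.47 and 5.95 in mock cells not induced. CCL22 had 5.86 and 5.49 in the knockdown, against 5.50 and 5.66 in induced mock cells and 5.02 and 5.48 in mock cells not induced. CXCL16 left a gap of 0.23 above the highest mock array, less than the 0.48 over which its mock arrays spread. CCL22 groups overlapped.

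**Figure D1:**
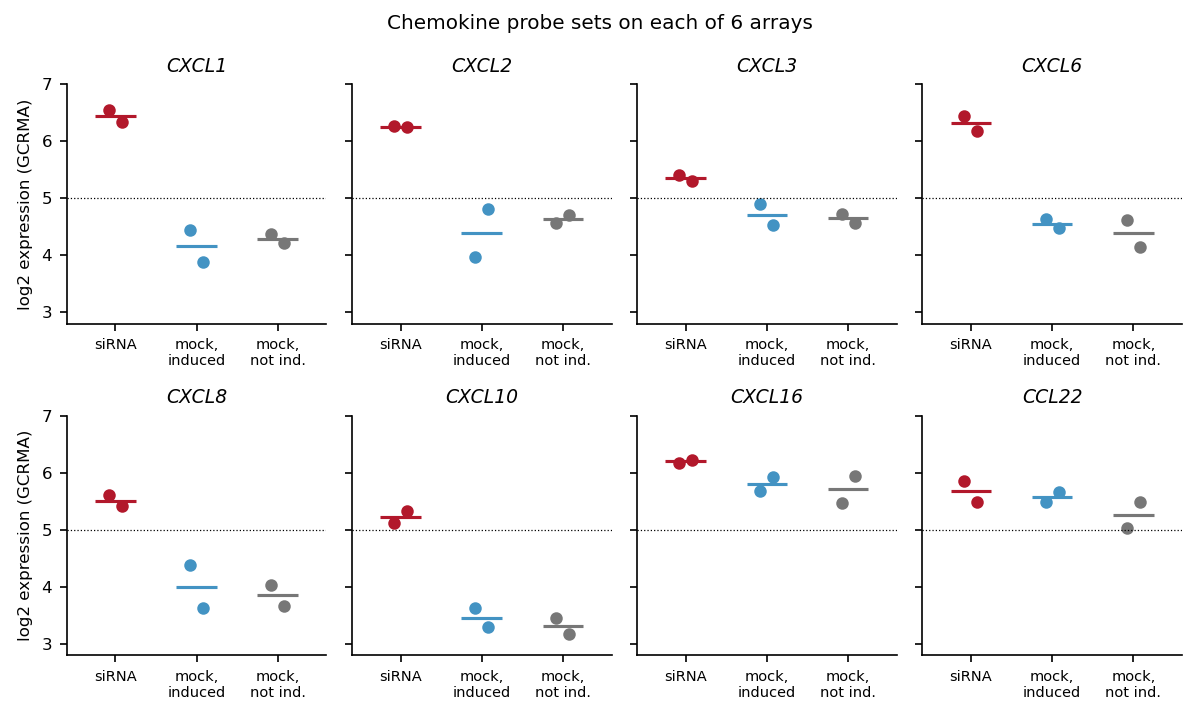
Log2 expression (GCRMA) of each chemokine probe set on each array, by group: LIN28B siRNA, induced mock and mock not induced, 2 arrays each. Points are arrays, bars are group means and the dotted line marks 5; CXCL1, CXCL2, CXCL3, CXCL6, CXCL8 and CXCL10 lie above it on the knockdown arrays only, while CXCL16 and CCL22 lie above it on all arrays.

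As differences of group means, the knockdown stood above mock cells not induced by 2.16 for CXCL1 (SE 0.22), 1.94 for CXCL6 (SE 0.21), 1.92 for CXCL10 (SE 0.24), 1.66 for CXCL8 (SE 0.27) and 1.62 for CXCL2 (SE 0.25) on the log2 scale. As ratios these are 4.47, 3.82, 3.78, 3.16 and 3.08. CXCL3 differed by 0.70 (SE 0.19), CXCL16 by 0.49 (SE 0.18) and CCL22 by 0.42 (SE 0.20), or ratios of 1.63, 1.41 and 1.34. Against induced mock cells, which share the knockdown arrays with this comparison, the differences were 2.28 for CXCL1, 1.87 for CXCL2, 0.64 for CXCL3, 1.76 for CXCL6, 1.51 for CXCL8, 1.77 for CXCL10, 0.41 for CXCL16 and 0.10 for CCL22. In rank among the rises of all 11584 genes against mock cells not induced, CXCL1 came 2, CXCL6 5, CXCL10 6, CXCL8 10 and CXCL2 12. CXCL3, CXCL16 and CCL22 ranked 316, 755 and 1111.

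In the limma model over all genes, 6 of the 8 fell past the adjusted p of 0.05 against mock cells not induced, beside 13.5% of all genes called higher. They are the same 6 that reach 5 on the knockdown arrays alone, so this count is no test of them. CXCL16 and CCL22 did not pass. Against induced mock cells the count was again 6, beside 14.0% of all genes called higher. Both knockdown arrays lay above all 4 mock arrays for 7 of the 8, and for 27.1% of all genes. The members were chosen with these comparisons known, so nothing is read from the counts.

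The size of the small differences depended on single arrays. The CXCL16 difference from mock cells not induced was 0.26 without uninduced mock replicate 1, and that of CCL22 was 0.19 without it, 0.65 without uninduced mock replicate 2 and 0.24 without knockdown replicate 1. Against induced mock cells CCL22 changed sign, to -0.09, without knockdown replicate 1. For CXCL1, CXCL2, CXCL3, CXCL6, CXCL8 and CXCL10 the lowest difference from mock cells not induced, when any array was left out, was 0.62, for CXCL3. The sign could not change for these genes, since all their knockdown arrays lie above 5 and all their mock arrays under it.

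All mock values of these 6 genes lie under 5, where 2.84% of all values in the table lie. The CXCL2 and CXCL8 probe sets are of a type (ending in _x_at) that can pick up related transcripts, so CXCL2 may not be a measurement separate from CXCL1 and CXCL3.

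**Figure D2:**
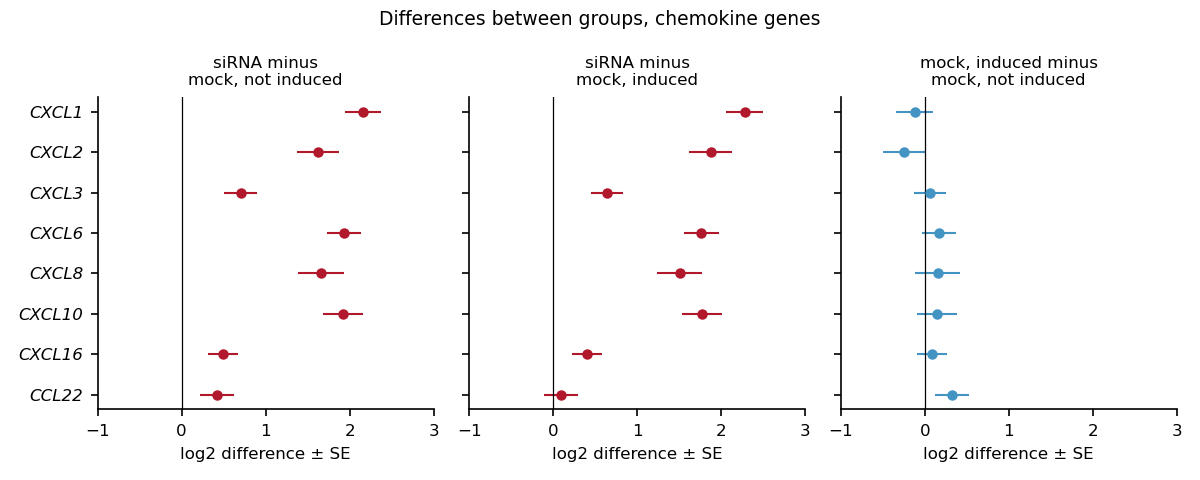
Differences between group means on the log2 scale with their SE, for the 8 chemokine genes: siRNA minus mock not induced, siRNA minus mock induced, and mock induced minus mock not induced. With siRNA the differences run between 0.10 and 2.28, while the difference between the mock groups runs between -0.25 and 0.32.

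The set was proposed on its values after siRNA and not on the induction of the tagged LIN28B, so the induction was tested. This test is not fully separate from the choice of the set. The mock arrays not induced are the baseline both here and in the siRNA comparison that was already known. For 6 of the 8 genes all mock values lie under 5, at the low end of the table, which limits what this test can show for them. No chemokine passed the test between induced mock cells and mock cells not induced. The induced cells averaged higher for 6 genes and lower for 2, by between -0.25 for CXCL2 and 0.32 for CCL22, with SEs between 0.18 and 0.27 and a limma adjusted p of 0.999 for each. The model called 0 of all genes (0%). At an unadjusted p under 0.05 it found 0 of the 8 chemokines and 344 genes in all, or 2.97%, a number that came to 865 without uninduced mock replicate 1 and 826 without uninduced mock replicate 2.

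The intervals show what these arrays leave possible. The 95% interval for induced minus not induced ran between -0.61 and 0.37 for CXCL1, between -0.45 and 0.76 for CXCL8, between -0.39 and 0.69 for CXCL10 and between -0.13 and 0.77 for CCL22. The sign of the CXCL2 difference rested on 1 array: it was 0.17 without induced replicate 1 and -0.67 without induced replicate 2. That of CCL22 was 0.09 without uninduced mock replicate 1 and 0.55 without uninduced mock replicate 2. The order of the group means was knockdown, induced, not induced for 6 genes, and knockdown, not induced, induced for CXCL1 and CXCL2. The mock groups, neighbours in that order, overlapped for every gene but CCL22. There the induced arrays read 5.50 and 5.66, and the mock arrays not induced 5.02 and 5.48.

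Among the 6 genes that were low in mock cells, log2 values over the 6 arrays moved in parallel, with Pearson correlations between 0.787 and 0.999 over 15 pairs. The highest was between CXCL3 and CXCL8 and the lowest between CXCL2 and CXCL3. These correlations mostly restate the gap between knockdown and mock arrays, and the points share the same 6 arrays. CXCL16 and CCL22 correlated with each other at 0.757, and CCL22 with CXCL1 at 0.425. Within the knockdown, replicate 1 read higher than replicate 2 for 6 of the 8 genes, against 44.9% of all genes.

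Of 23 chemokine receptors listed, 3 were measured and none passed, with a median log2 difference of 0.08. CXCR1, the receptor of CXCL6 and CXCL8, had 5.51 and 5.21 in the knockdown, against 5.37 and 5.15 in mock cells not induced. CXCR3, the receptor of CXCL10, had 5.12 and 5.36 in the knockdown, against 5.21 and 5.12 in mock cells not induced. CXCR4, which binds CXCL12 and was picked after its value was seen, had a log2 difference of -0.11 (95% interval between -0.38 and 0.16). The knockdown and the mock groups overlapped for each receptor. CXCR2, CXCR6 and CCR4, the receptors of the other members, were not analysed here.

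Chemokines and related ligands outside the CXCL and CCL names were also measured. Of 7 listed, 4 were measured, and only MIF, a cytokine that also acts on chemokine receptors, was called: it read 12.21 and 12.20 in the knockdown, against 12.41 and 12.52 in mock cells not induced, a fall of 0.26 on the log2 scale (SE 0.04, limma adjusted p = 0.00209). It lost its call with no intensity trend in the model (adjusted p = 0.0741). XCL1, CX3CL1 and the platelet factor gene PF4, named after their values were seen, had differences of 0.12, 0.39 and 0.21 and did not pass. The XCL1 and PF4 probe sets end in _x_at and can pick up related transcripts. CX3CL1 was 0.14 without knockdown replicate 1 and 0.64 without knockdown replicate 2.

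Genes that process chemokines or hold them at the cell surface rose in part. Of 18 listed, 13 were measured, 5 rose, 0 fell and 8 did not pass, with a median log2 difference of 0.31, against a median of 0.01 over all genes and 13.5% of genes higher. EXT1 and EXT2, which polymerise heparan sulfate, the glycan that retains chemokines at the surface, rose by 0.89 (SE 0.13) and 0.66 (SE 0.09), with limma adjusted p of 0.00101 and 0.000527. EXT1 read 6.77 and 6.93 in the knockdown, against 5.93 and 5.98 in mock cells not induced, and EXT2 read 8.87 and 8.94 against 8.29 and 8.19 in mock cells not induced. HS2ST1, a heparan sulfate sulfotransferase, rose by 0.54 and the matrix protease gene MMP2 by 0.86. The syndecan gene SDC4, named after its value was seen, rose by 0.45. MMP2, HS2ST1 and SDC4 lost their calls without knockdown replicate 2 (adjusted p = 0.0553, 0.0507 and 0.0623), and SDC4 also without knockdown replicate 1 (adjusted p = 0.0884). Other genes for heparan sulfate or its carriers, also named after their values were seen, did not pass. The differences were -0.33 for NDST1, -0.28 for GPC1, -0.02 for SDC2, -0.01 for HS6ST1 and 0.31 for SDC1. ADAM10, a protease that sheds CXCL16 and named after its value was seen, differed by 0.19 and did not pass.

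Other inflammatory cytokines gave 1 call. Of 25 listed, 9 were measured, 1 rose, 0 fell and 8 did not pass, with a median of 0.24, where 13.5% of all genes were called higher. IL23A, a subunit of interleukin-23, had 5.76 and 5.69 in the knockdown, against 5.12 and 4.90 in mock cells not induced, a rise of 0.72 (SE 0.17, limma adjusted p = 0.011). It lost its call without uninduced mock replicate 2 (adjusted p = 0.0523) and without knockdown replicate 1 (adjusted p = 0.075). IL6, IL1A, IL1B and TNF were not analysed here.

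Among genes of the NF-kB pathway, 2 that encode inhibitors of NF-kB, TNFAIP3 and NFKBIA, rose. TNFAIP3, which encodes the ubiquitin-editing inhibitor A20, read 6.60 and 6.57 on the knockdown arrays, against 5.52 and 5.55 on the induced mock arrays and 5.48 and 5.48 on the mock arrays not induced, a rise of 1.10 (SE 0.13, limma adjusted p = 0.000409). NFKBIA, which encodes the inhibitor IkB-alpha, read 9.19 and 9.15 in the knockdown, against 8.21 and 8.24 in induced mock cells and 8.41 and 8.27 in mock cells not induced, a rise of 0.83 (SE 0.08, limma adjusted p = 0.000158). For both genes the mock groups lay far below the knockdown on all arrays. A part of NF-kB in the chemokine values was not tested. Of 23 genes for NF-kB subunits, kinases and inhibitors, 19 were measured, 2 rose, 1 fell and 16 did not pass, with a median of 0.10, where 28.0% of all genes were called and 13.5% were called higher. The gene that fell was RBCK1, of the linear ubiquitin ligase, by 0.33. It lost its call with no intensity trend and with only the 4 arrays compared (limma adjusted p = 0.0595 and 0.0676). The call was also lost without either knockdown array, without uninduced mock replicate 2 and without either induced array. The subunit genes RELA, NFKB1 and REL, named after their values were seen, had differences of -0.13, -0.03 and 0.37 and did not pass (adjusted p = 0.568, 0.887 and 0.119). Further inhibitor genes, also named after their values were seen, did not pass: the differences were 0.06 for NFKBIB, -0.33 for NFKBID, -0.22 for NFKBIE, 0.32 for NFKBIZ, 0.03 for TNIP1, 0.25 for TNIP2 and 0.32 for CYLD.

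Of 42 receptors and adaptors of interleukin-1, tumour necrosis factor and microbial sensing listed, 23 were measured, 2 rose, 4 fell and 17 did not pass, a share near the 28.0% of all genes called. The interleukin-17 receptor gene IL17RA rose by 0.46 and the kinase gene IRAK2 by 0.59. The kinase gene MAP3K7, which encodes TAK1, fell by 0.51 and the antiviral adaptor gene MAVS by 0.48. The kinase genes IRAK1 and RIPK2, named after their values were seen, fell by 0.43 and 0.42. Each of the 6 lost its call when at least 1 knockdown array was left out, IRAK1 only without knockdown replicate 2, with adjusted p between 0.0654 and 0.19. MAP3K7, IL17RA and RIPK2 lost theirs without uninduced mock replicate 1 too (adjusted p = 0.0814, 0.14 and 0.0672), IRAK2 without uninduced mock replicate 2 (adjusted p = 0.119) and MAVS without either induced array (adjusted p = 0.0597). MAVS was -0.26 without uninduced mock replicate 2 (adjusted p = 0.198).

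Other transcription factors act beside NF-kB at chemokine promoters. Of 21 AP-1, C/EBP, IRF and STAT genes listed, 16 were measured, 1 rose, 3 fell and 12 did not pass, with a median of -0.02, a number of calls near the 28.0% of all genes. STAT3 rose by 0.47 (SE 0.09, limma adjusted p = 0.00463), reading 8.09 and 8.05 in the knockdown, against 7.57 and 7.62 in mock cells not induced. CEBPD fell by 0.47, JUN by 0.39 and JUND by 0.33, which was 0.18 without uninduced mock replicate 2. All 3 that fell lost their call without knockdown replicate 1 (adjusted p = 0.0944, 0.192 and 0.142), JUND also without knockdown replicate 2 (adjusted p = 0.116), and JUN and JUND without uninduced mock replicate 2 (adjusted p = 0.114 and 0.119). IRF1, a factor of interferon responses named after its value was seen, differed by 0.18 and did not pass.

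Chemokine mRNAs such as that of CXCL8 carry AU-rich elements, which bind proteins that speed or slow their decay. Of 20 genes for such factors, 19 were measured, 3 rose, 2 fell and 14 did not pass, with a median of 0.10, a number of calls near the 28.0% of all genes. ZFP36L1, a decay-promoting zinc finger protein, had 6.44 and 7.42 on the knockdown arrays, against 5.75 and 6.09 on the mock arrays not induced, a rise of 1.01 (SE 0.27) that was 0.52 without knockdown replicate 2. The decapping enzyme gene DCP2 rose by 0.56. KHSRP and HNRNPD, which encode AU-rich element binding proteins, fell by 0.52 and 0.37. KHSRP was -0.33 without uninduced mock replicate 2 (adjusted p = 0.14). PARN, a poly(A) ribonuclease gene named after its value was seen, rose by 0.26. Each of these 5 lost its call without at least 1 of the knockdown arrays, with adjusted p between 0.0593 and 0.249. ZFP36L1 lost it without uninduced mock replicate 1 too (adjusted p = 0.0843), and PARN without uninduced mock replicate 2 (adjusted p = 0.118) and without either induced array (adjusted p = 0.065 and 0.0646).

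**Figure D3:**
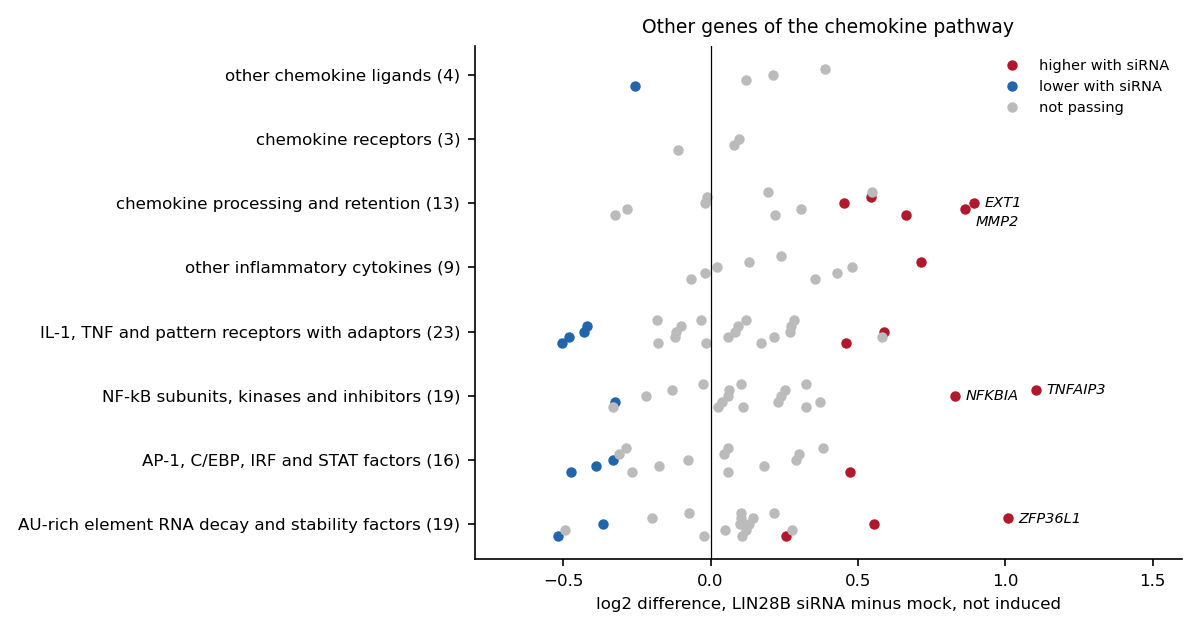
Log2 difference of LIN28B siRNA minus mock not induced for each measured gene of 8 lists around the chemokines, with the number measured in brackets; colours give the limma call at an adjusted p under 0.05. TNFAIP3 at 1.10, ZFP36L1 at 1.01, EXT1 at 0.89, MMP2 at 0.86 and NFKBIA at 0.83 lie farthest to the right, and the vertical offset within a list has no meaning.

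Of the 8 chemokine genes, 6 lie on chromosome 4. All 6 have CXCL symbols, and genes of a family can lie together, so this place is not separate from the symbol rule. The share of all CXCL and CCL genes that lie there was not counted. CXCL8, CXCL6, CXCL1, CXCL3, CXCL2 and CXCL10 lie in this order on chromosome 4 in RefSeq, and they are the same 6 that lay under 5 on every mock array. RefSeq places 27 protein-coding genes from CXCL8 to CXCL10, of which 15 were measured, 6 of them members. CXCL10 lies apart: its promoter stretch begins at base 76023590, and the stretches of the other members there end at 74099332 or before. The 9 others had differences between -0.62 and 0.51, with 1 rise, 3 falls and 5 that did not pass, against 13.5% of all genes higher and 14.5% lower. All of them but PF4 lie between CXCL2 and CXCL10, so they mostly describe that gap. All 9 are named after their values were seen.

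The gene that rose was the ubiquitin ligase gene RCHY1, by 0.51 (SE 0.08, limma adjusted p = 0.00144). CDKL2 fell by 0.62, PARM1 by 0.54 and NAAA by 0.51. PF4, which encodes another CXC chemokine inside the cluster, read 5.94 and 6.12 in the knockdown, against 5.83 and 5.80 in mock cells not induced. MTHFD2L, next to CXCL2, read 5.33 and 6.73 in the knockdown, against 6.10 and 5.49 in mock cells not induced, and did not pass. G3BP2, SDAD1 and THAP6 had differences of 0.17, 0.04 and -0.13. PARM1 and CDKL2 lost their calls without knockdown replicate 1 (adjusted p = 0.196 and 0.121) and NAAA without knockdown replicate 2 (adjusted p = 0.134). PARM1 also lost it without uninduced mock replicate 1 (adjusted p = 0.117) and without either induced array (adjusted p = 0.0514 and 0.0511), and CDKL2 and NAAA without uninduced mock replicate 2 (adjusted p = 0.05 and 0.0634). MTHFD2L had 0.93 without knockdown replicate 1 (adjusted p = 0.0421) and -0.47 without knockdown replicate 2.

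**Figure D4:**
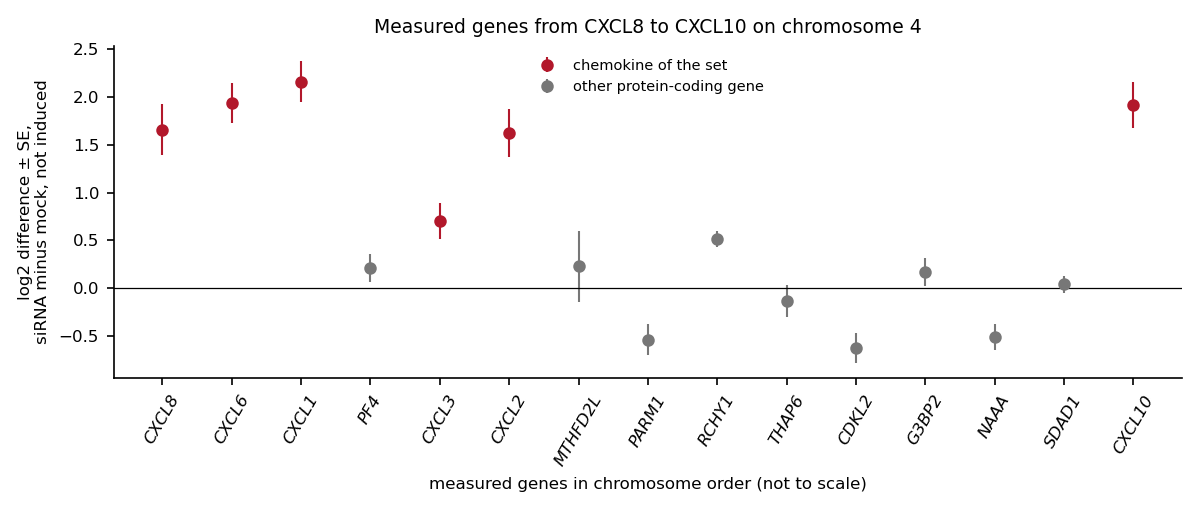
Log2 difference of LIN28B siRNA minus mock not induced, with its SE, for the 15 measured protein-coding genes from CXCL8 to CXCL10 in chromosome order, not to scale. The 6 chemokines of the set lie between 0.70 and 2.16, and the 9 other genes between -0.62 and 0.51. Among these others is PF4, also a chemokine gene, at 0.21.

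The genes whose pattern over the 6 arrays lay nearest to the mean pattern of the 8 chemokines were TTC17, the centromere protein gene CENPQ, the metallothionein gene MT1F, the RNA-binding protein gene ELAVL2 and the linker histone gene H1-2. Likeness was the Euclidean distance between log2 values centred on each gene's mean, and it came to 0.18, 0.20, 0.20, 0.21 and 0.22. Their knockdown values stood above mock cells not induced by 1.32, 1.36, 1.31, 1.28 and 1.41. The chemokines themselves lay farther from their mean, between 0.59 for CXCL8 and 1.34 for CCL22.

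HEK293 is a line without blood cells. Of 20 leukocyte and blood markers, 2 were in the table, the B cell gene CD79A and the haemoglobin gene HBB, while PTPRC, CD14 and CD3E were not analysed here. CD79A and HBB had differences of 0.30 and 0.12 and did not pass. Their summed level, taken on the linear scale and given as log2, lay between 6.23 and 6.26 in the knockdown, between 6.05 and 6.18 in induced mock cells and between 5.98 and 6.09 in mock cells not induced. Of 14 fibroblast and endothelial markers, 2 were in the table, COL1A1 and ACTA2, with differences of 0.04 and 0.33 that did not pass, though ACTA2 passed without uninduced mock replicate 2 (adjusted p = 0.0351). Their summed level lay between 7.94 and 8.02 in the knockdown, between 7.78 and 7.85 in induced mock cells and between 7.70 and 7.77 in mock cells not induced. These sums were higher in the knockdown, as the chemokines were, and their part in the result was not tested.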

How the data were processed

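The values are the authors' deposited log2 expression values per probe set, made with affy and GCRMA per the submitters' processing notes, whose versions are not given in the sources used here. The base of the logarithm was taken as the one GCRMA returns. The table holds 13008 probe sets, and how they were picked from the array is not stated in the sources used. Biotin-labelled targets were made from 2 µg of RNA, per the labels.

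Gene names came from the platform annotation, with symbols updated by gene ID to RefSeq (GRCh38.p14, 11578 of 11584 genes matched). Of all probe sets 11719 had a single symbol, 609 had several and 680 had none listed. For 130 genes with several probe sets, the set of highest mean was used. Tests used limma 3.58.1 under R 4.3.3 (lmFit, then eBayes with a trend on intensity) and 1 model of 3 groups over all 6 arrays, with two-sided tests, Benjamini-Hochberg adjustment over all genes and a call at an adjusted p under 0.05. The fit was checked on simulated data. The number of arrays limits the precision. SE is that of the model.

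The members, gene lists and tests were chosen with earlier results of these data known. Named genes are all members, LIN28B, up to 4 called genes of largest change per list (or up to 2 measured genes where none was called), and the 5 genes nearest to the members' mean profile, apart from those said to be named after their values were seen. Alternatives were array centring, quantile normalization, a stricter filter, averaged probe sets, no intensity trend, only the 4 arrays compared, replicate number as a block, and leaving out each array.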

Additional observations from a re-analysis of the deposited data

How the results depend on the processing

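Over 13 alternatives the number of genes called against mock cells not induced stayed within 1.5 times of 3242, except without knockdown replicate 1 (1664) or 2 (1975), and over arrays left out it ran between 1664 and 3143. Against induced mock cells it was 3295 and ran between 1702 and 3951, with 1928 and 1811 without induced replicate 1 or 2 and 1702 and 2068 without knockdown replicate 1 or 2. A group with an array left out is assumed to vary like the others. For induction it stayed at 0, except for 1 without uninduced mock replicate 2. These settings have fewer arrays, and other causes were not tested.

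Of the 8 chemokines, as a description, 5 to 7 were called against mock cells not induced and 5 or 6 against induced mock cells, except that 0 were called where genes had to lie above 5 on at least 4 arrays, a filter that removes the 6 that were called. Of the 25 other list genes called, 5 (EXT1, EXT2, NFKBIA, TNFAIP3 and STAT3) kept their call in every alternative. With no intensity trend, MIF, MAVS, RBCK1, JUN, JUND, ZFP36L1 and PARN lost theirs. With only the 4 arrays compared, MAVS, RBCK1, PARN and the chromosome 4 neighbour PARM1 lost theirs. Replicate numbers are shared between groups, but same-numbered arrays deviated together only weakly (r between -0.057 and 0.181), and with the replicate block 3422, 3491 and 0 genes were called in the knockdown comparisons against mock cells not induced and induced, and for induction, and ACTA2 gained a call (adjusted p = 0.0349).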
